A study of Mus musculus with 6 samples.

Results

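Lysosomal enzymes and membrane proteins are described here as 37 genes, listed by name, in cells sorted from primary mouse pancreatic tumours. They comprise 26 soluble hydrolases, 3 soluble activator, cofactor and sterol-binding proteins, 6 membrane proteins and the transcription factors Tfeb and Tfe3. The list was matched to the Ensembl identifiers of an expression table of 25978 genes through gene symbols. All 37 were found, and all 37 passed the filter on low values that left 15783 genes for testing. RNA sequencing covered 3 libraries of YFP+EpCAM- cells and 3 libraries of YFP+EpCAM+ cells, called EpCAM- and EpCAM+ libraries here, and the labels describe them as biological replicates. EpCAM is an epithelial adhesion molecule, and the study calls the cells without it mesenchymal and those with it epithelial. Both groups came from KPCY mice on the C57BL/6 background at 5 to 7 weeks of age. Among the alleles these animals carry are Pdx1-Cre, Trp53fl/fl and Rosa26LSL-YFP, so a pancreatic Cre deletes Trp53 and marks the cells with YFP. Pdx1-Cre acts in pancreatic progenitors, and YFP therefore marks the whole recombined pancreatic lineage and not tumour cells alone. There was no group without these alleles.

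Lysosomes break down proteins, glycans, lipids and nucleic acids that arrive by endocytosis, phagocytosis and autophagy. Most of their soluble hydrolases receive a mannose 6-phosphate tag in the Golgi and are carried to the acidic lumen by receptors, while membrane glycoproteins line the organelle and pump, channel and transporter proteins set its pH and ion content. The factors TFEB and TFE3 can switch on many of these genes together through a short promoter motif built on CACGTG. Pancreatic cancer cells are known for a high lysosomal and autophagic activity, and lysosomal proteases can also be secreted and act on the matrix around the cells.

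All levels below are the values as deposited, normalised and on a log2 scale, and a log2 fold change is the EpCAM- mean minus the EpCAM+ mean with its standard error from limma. A gene is said to have risen or fallen when its limma p, adjusted over the 15783 tested genes by the Benjamini-Hochberg method, was under 0.05. Read counts were not part of the values, so the depth behind them is unknown. Epcam itself was at 8.42, 8.22 and 7.22 in the EpCAM- libraries, against 15.06, 14.90 and 14.89 in the EpCAM+ libraries (log2 fold change -7.00 ± 0.30, adjusted p = 7.4e-06) in the direction the labels give. Trp53, floxed in both groups, was at 7.46, 7.38 and 7.29, against 7.36, 6.93 and 7.17, and the level of the whole gene does not check the deletion of a part of it. On a principal component with 7.28% of the variance, the replicate 1 libraries of both groups lay apart from the other 4. EpCAM+ replicate 1 also had the highest summed level of macrophage and leukocyte markers, and EpCAM- replicate 3 the lowest summed level of fibroblast markers in its group. The counts of members below are therefore also given without these libraries.

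The lysosomal genes did not move as a block. In EpCAM- cells 12 of the 37 rose, 8 fell and 17 did not pass the test. The 20 that passed make 54.1% of the members, against 43.4% of all tested genes. By direction, 32.4% of the members rose, against 20.3% of all tested genes, and 21.6% fell, against 23.1%. The groups did not overlap for 26 members (70.3%), against 56.3% of all tested genes. The largest changes were falls: Ctsh fell 9.46-fold, Ctss 6.01-fold, Scarb2 2.93-fold, Ctsc 2.84-fold, Cln3 2.19-fold and Neu1 2.12-fold, while Arsa, which rose 2.81-fold, was the only riser past 1 log2 unit. These 7 compare with 23.9% of all tested genes that passed with a change of at least 1 log2 unit. Counting sign alone, 62.2% of the members were higher in EpCAM- cells, against 50.3% of all tested genes. The median log2 fold change of the members was 0.20, against 0.00 over all tested genes, and the median of its absolute size was 0.41, against 0.46.

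These counts depend on the libraries used. Without EpCAM+ replicate 3 they dropped to 12 members (32.4%), 5 higher and 7 lower, beside 31.6% of all tested genes. Leaving out EpCAM- replicate 3 gave 14 members (37.8%; 6 higher and 8 lower), beside 36.1% of all tested genes. Leaving out EpCAM+ replicate 2 gave 15 members (40.5%; 7 higher and 8 lower), beside 35.3%. Without both EpCAM+ replicate 1 and EpCAM- replicate 3, 9 members passed (24.3%; 4 higher and 5 lower), beside 27.7% of all tested genes. Without both replicate 1 libraries, 15 passed (40.5%; 9 higher and 6 lower), beside 39.0%. Ctsc, Ctsh, Ctss, Neu1, Arsa, Arsb and Lipa passed under all 17 alternatives run, and none of the 20 called members changed direction under any of them.

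**Figure D1:**
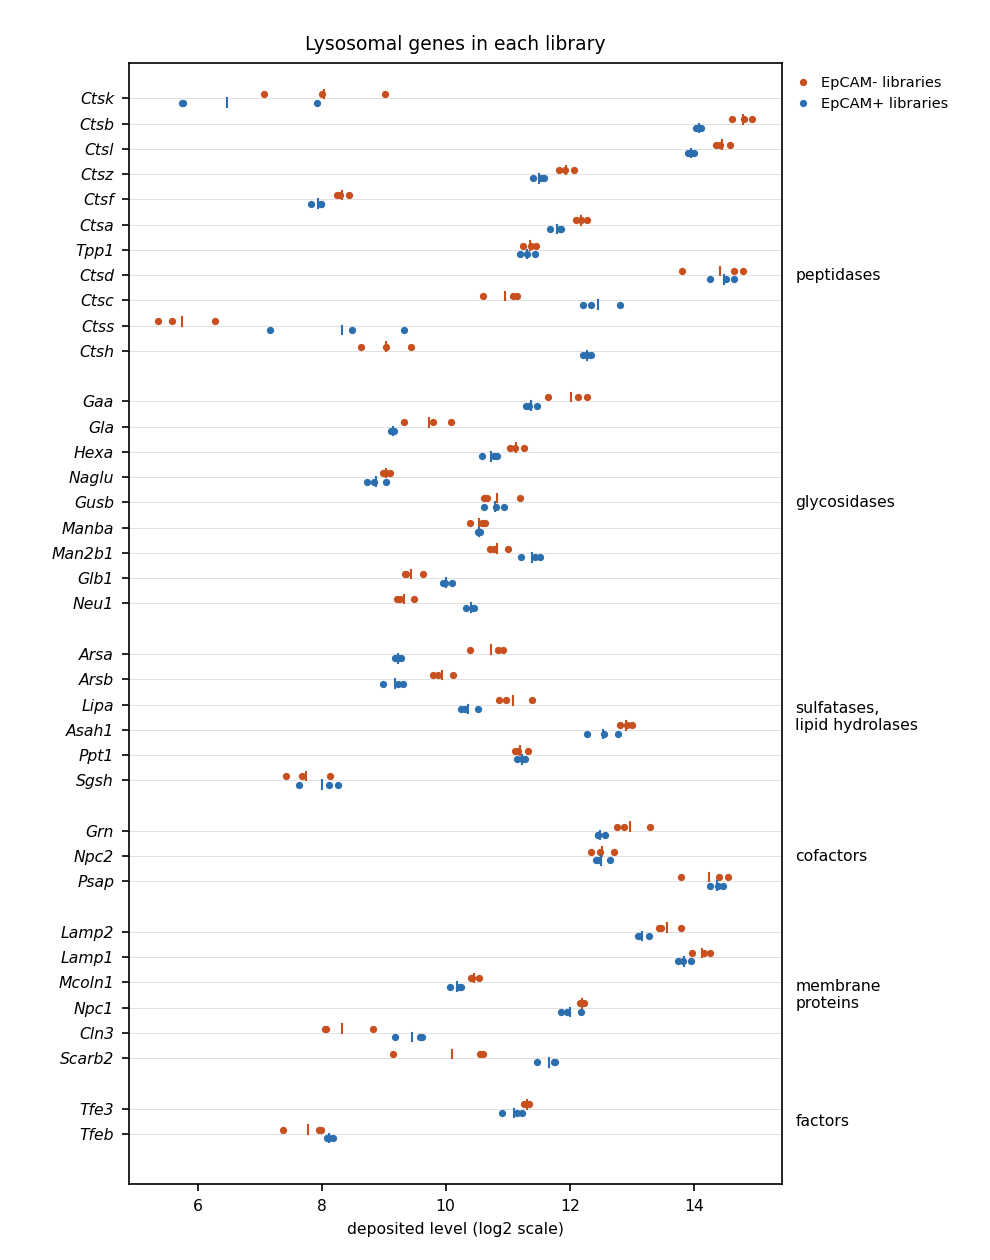
Deposited log2 level (horizontal axis) of each of the 37 genes in each library, EpCAM- above EpCAM+ for each gene, with the group mean as a bar and genes grouped by role. Ctsh, Ctss, Ctsc, Scarb2, Cln3 and Neu1 lie to the left in EpCAM- libraries, Arsa lies to the right, and Ctsd, Psap and Scarb2 have their lowest EpCAM- point in replicate 3.

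Summed on the back-transformed linear scale, the 37 genes made up 0.743%, 0.751% and 0.682% of the total in the EpCAM- libraries, against 0.674%, 0.626% and 0.605% in the EpCAM+ libraries. Every EpCAM- library lay above every EpCAM+ library, although the lowest EpCAM- share was close to the highest EpCAM+ share. A few genes carried this sum. Ctsb supplied 12.7%, 14.2% and 17.9% of it in the EpCAM- libraries, against 9.88%, 9.66% and 11.1% in EpCAM+. Ctsd supplied 14.2%, 12.7% and 8.12%, against 13.3%, 14.9% and 12.3%.

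The regulators come first. TFEB and TFE3 are basic helix-loop-helix factors that move to the nucleus when nutrients are scarce or lysosomes are stressed, so their activity is set largely by location, which RNA levels do not measure. Tfeb was at 7.38, 7.97 and 8.00 in the EpCAM- libraries, against 8.18, 8.08 and 8.11 in the EpCAM+ libraries. Its EpCAM- levels all lay under the EpCAM+ levels, by a difference that did not pass the test (log2 fold change -0.34 ± 0.20, adjusted p = 0.204). Tfe3 was at 11.32, 11.27 and 11.35, against 11.23, 11.15 and 10.91, again without overlap and without passing the test (log2 fold change 0.22 ± 0.11, adjusted p = 0.153). Scaled per kilobase of merged exon, Tfe3 averaged 8.10 ± 0.04 (log2) in EpCAM- and 7.89 ± 0.17 in EpCAM+ cells, and Tfeb 5.28 ± 0.35 and 5.62 ± 0.05 (SD, n = 3 each), so Tfe3 was the more abundant of the pair in both groups.

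The promoter windows of the members, taken from RefSeq on GRCm38.p6 and running from 250 bases before to 50 bases after each start site, were searched for the motif core. A window was held for 33 of the 37 genes. CACGTG, which reads the same on both strands, was present in 13 of these 33 genes (39.4%), in 7.15% of all 32851 windows in the table, and in 11.4% of the 11232 tested genes with a window. The longer palindrome GTCACGTGAC, which holds CACGTG at its centre, occurred in 1 member, Cln3, and in 0.326% of all windows. The 5 windows below show the range. Lamp1 has the most copies, Ctsa has copies on both sides of a start site, and Cln3 holds the long palindrome. Arsa is the member that rose most, and Ctss is the member with a window that fell most and has no copy. Ctsa (chr2:164832622-164832921) and Cln3 (chr7:126585768-126586067) each also have a window at another start site, without the core. Capitals mark CACGTG, or the whole palindrome in Cln3, and all are written 5′ to 3′ on the strand of the gene.
Lamp1 (chr8:13158911-13159210, plus strand): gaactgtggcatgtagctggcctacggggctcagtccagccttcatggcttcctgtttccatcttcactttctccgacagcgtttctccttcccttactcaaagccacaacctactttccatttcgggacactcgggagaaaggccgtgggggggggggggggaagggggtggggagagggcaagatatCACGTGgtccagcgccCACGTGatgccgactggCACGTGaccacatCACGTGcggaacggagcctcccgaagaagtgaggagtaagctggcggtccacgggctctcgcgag
Ctsa (chr2:164833523-164833822, plus strand): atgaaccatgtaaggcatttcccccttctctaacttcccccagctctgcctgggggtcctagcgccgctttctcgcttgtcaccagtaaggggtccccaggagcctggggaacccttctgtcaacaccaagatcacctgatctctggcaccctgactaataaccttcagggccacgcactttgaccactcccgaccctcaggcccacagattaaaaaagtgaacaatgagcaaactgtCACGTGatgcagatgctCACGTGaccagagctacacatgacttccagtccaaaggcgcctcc
Cln3 (chr7:126583187-126583486, minus strand): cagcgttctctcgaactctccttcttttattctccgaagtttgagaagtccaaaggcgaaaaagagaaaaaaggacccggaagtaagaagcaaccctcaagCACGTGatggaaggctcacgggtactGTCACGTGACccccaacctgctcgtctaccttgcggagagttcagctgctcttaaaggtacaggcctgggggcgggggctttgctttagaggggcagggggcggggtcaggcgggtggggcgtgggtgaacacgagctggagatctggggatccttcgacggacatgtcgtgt
Arsa (chr15:89477375-89477674, minus strand): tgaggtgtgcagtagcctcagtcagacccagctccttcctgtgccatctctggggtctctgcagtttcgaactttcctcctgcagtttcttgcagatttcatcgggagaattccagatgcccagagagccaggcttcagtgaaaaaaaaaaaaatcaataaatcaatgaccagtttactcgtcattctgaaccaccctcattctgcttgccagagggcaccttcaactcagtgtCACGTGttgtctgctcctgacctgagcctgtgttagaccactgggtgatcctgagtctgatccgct
Ctss (chr3:95526536-95526835, plus strand): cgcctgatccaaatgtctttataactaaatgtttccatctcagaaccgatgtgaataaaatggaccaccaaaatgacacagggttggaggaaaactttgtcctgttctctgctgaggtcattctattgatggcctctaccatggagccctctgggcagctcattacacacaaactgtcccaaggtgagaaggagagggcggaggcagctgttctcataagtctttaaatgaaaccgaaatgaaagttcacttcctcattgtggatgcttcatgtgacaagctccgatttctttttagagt

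In Lamp1 the 4 copies begin 61, 45, 28 and 15 bases before the start site. Ctsa has 1 copy that begins 12 bases before the start and another that begins 5 bases after it. The Cln3 copies begin 149 and 121 bases before the start, the nearer of them inside the palindrome, and the Arsa copy begins 16 bases before it. Copies of the core were also found for Ctsd, Ctsf, Ctsl, Gaa, Gla, Glb1, Mcoln1, Naglu and Sgsh.

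Members with the core and members without it both included risers and fallers. Of the 13 genes with it, 6 rose, 2 fell and 5 did not pass, with a median log2 fold change of 0.29 and a range of -1.13 to 1.49. Of the 20 genes with a window and no core, 5 rose, 5 fell and 10 did not pass, with a median of 0.03 and a range of -2.59 to 1.55. Over all tested genes, 20.3% rose and 23.1% fell, and a link between the core and direction was not tested. Cln3, with the palindrome, fell, and Lamp1, with the most copies, did not pass. A match describes these letters in this window and says nothing about binding.

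**Figure D2:**
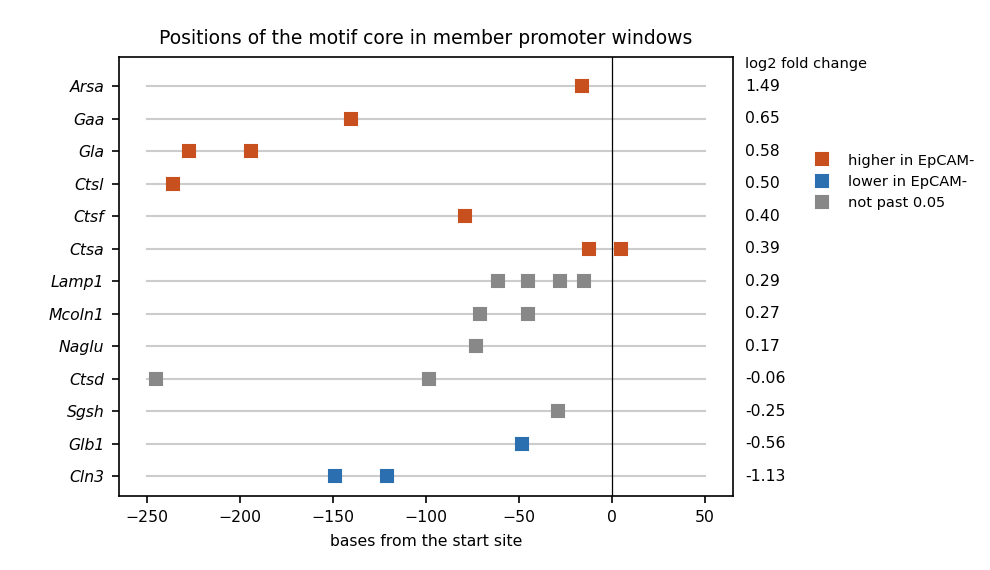
Position of each CACGTG core relative to the start site (horizontal axis, bases) in the promoter windows of the 13 members that hold it, ordered by log2 fold change (right), with colour for the test. All copies of Lamp1, Mcoln1, Arsa, Glb1, Naglu, Sgsh and Ctsf lie within 100 bases before the start, and both risers and fallers carry copies.

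Among the 11 peptidases, which cleave proteins in the lysosome, 5 rose (45.5%), 3 fell (27.3%) and 3 did not pass, beside 20.3% and 23.1% of all tested genes. The falls were larger than the rises. Cathepsin H, an aminopeptidase of the cysteine class (Ctsh, chr9:90054152-90076089 on GRCm38), was at 9.44, 9.03 and 8.63 in the EpCAM- libraries, against 12.28, 12.35 and 12.21 in the EpCAM+ libraries. All 3 EpCAM- libraries were far below the tightly grouped EpCAM+ libraries, and Ctsh fell by 3.24 ± 0.20 on the log2 scale (adjusted p = 3.0e-05). Per kilobase of exon it ranked 32 of the 37 members in EpCAM- and 9 in EpCAM+ cells.

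Cathepsin C (Ctsc, chr7:88278085-88310888), a dipeptidyl peptidase known for activating the granule serine proteases of leukocytes, was at 10.61, 11.15 and 11.09 in the EpCAM- libraries, against 12.33, 12.82 and 12.21 in the EpCAM+ libraries. The groups were more than 1 log2 unit apart at their nearest points, and Ctsc fell by 1.50 ± 0.21 (adjusted p = 0.00125). Cathepsin S (Ctss, chr3:95526786-95556403), which trims the invariant chain in antigen-presenting cells, was at 5.59, 6.27 and 5.37, against 9.33, 7.17 and 8.49. Ctss fell by 2.59 ± 0.54 (adjusted p = 0.00784), and its EpCAM+ libraries were widely spread, with replicate 1 highest and replicate 2 lowest.

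Several macrophage and leukocyte markers had a spread like that of Ctss. Of 18 such markers tested, none rose, 13 fell (72.2%) and 5 did not pass, beside 20.3% of all tested genes higher and 23.1% lower. Their summed level was 0.00373% to 0.00463% of the library total in EpCAM- and 0.0163% to 0.0437% in EpCAM+ cells. Cd14 made up as much as 68.5% of an EpCAM+ sum and varied little between these libraries, at 12.05, 11.59 and 11.60. Without it the sums were 0.00258% to 0.00342% in EpCAM- and 0.00514% to 0.0275% in EpCAM+ cells. None of the markers was at 0 in any library, the lowest value being 2.42 for Cd163. Csf1r, the receptor that macrophages need to survive, was at 5.66, 6.18 and 5.12 in the EpCAM- libraries, against 9.56, 7.47 and 8.38 in the EpCAM+ libraries. The order of the 6 libraries was the same for Ctss as for 9 of the 18 markers, among them Csf1r, C1qa, Lyz2 and Ptprc. The log2 level of Ctss minus that of Csf1r stayed between -0.07 and 0.25 in EpCAM- and between -0.30 and 0.12 in EpCAM+ libraries. That of Ctsh minus Csf1r ranged over 2.85 to 3.78 and 2.72 to 4.87. Csf1r was the only one of the 18 markers compared in this way, and Ctsc was not compared. In sorted bulk samples, fewer cells of a type and less RNA per cell cannot be told apart, and the part of these markers in the fall of Ctss, Ctsc and Ctsh was not tested.

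Cathepsin K (Ctsk, chr3:95499256-95509362), a collagen-cleaving protease best known from osteoclasts, was at 9.01, 8.00 and 7.08 in the EpCAM- libraries, against 7.93, 5.75 and 5.76 in the EpCAM+ libraries. The groups overlapped because EpCAM+ replicate 1 lay above EpCAM- replicate 3. Its log2 fold change of 1.55 ± 0.71 was the largest positive one of the list and did not pass (adjusted p = 0.119, 95% confidence interval -0.13 to 3.23). Without EpCAM+ replicate 1 it was 2.28 with an adjusted p of 0.0215, without both replicate 1 libraries 1.78 with an adjusted p of 0.0186, and without both EpCAM+ replicate 1 and EpCAM- replicate 3 2.75 with an adjusted p of 0.00498. Of the 17 alternatives, however, only 4 gave Ctsk a call. Over all 17 its log2 fold change spanned 1.06 to 2.75, with adjusted p up to 0.307.

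Fibroblast markers moved in the same direction: 8 of 12 rose (66.7%), 1 fell (8.33%) and 3 did not pass, beside 20.3% and 23.1% of all tested genes. Their summed level was 0.459% to 0.837% of the total in EpCAM- and 0.0893% to 0.176% in EpCAM+ cells, and none was at 0, the lowest value being 2.38 for Dpt. Fbln2, a matrix glycoprotein, made up 73.9% to 96.2% of the EpCAM+ sums, and without it the sums were 0.122% to 0.543% in EpCAM- and 0.00671% to 0.0420% in EpCAM+ cells, with replicate 1 highest among the EpCAM+ libraries. Only Lum, a collagen-binding proteoglycan, had the same order of libraries as Ctsk, at 10.38, 9.24 and 7.02 against 7.16, 3.94 and 4.12. Neither of the 2 osteoclast markers tested passed. Mesenchymal tumour cells can express fibroblast genes, and whether these markers account for the Ctsk levels was not tested.

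**Figure D3:**
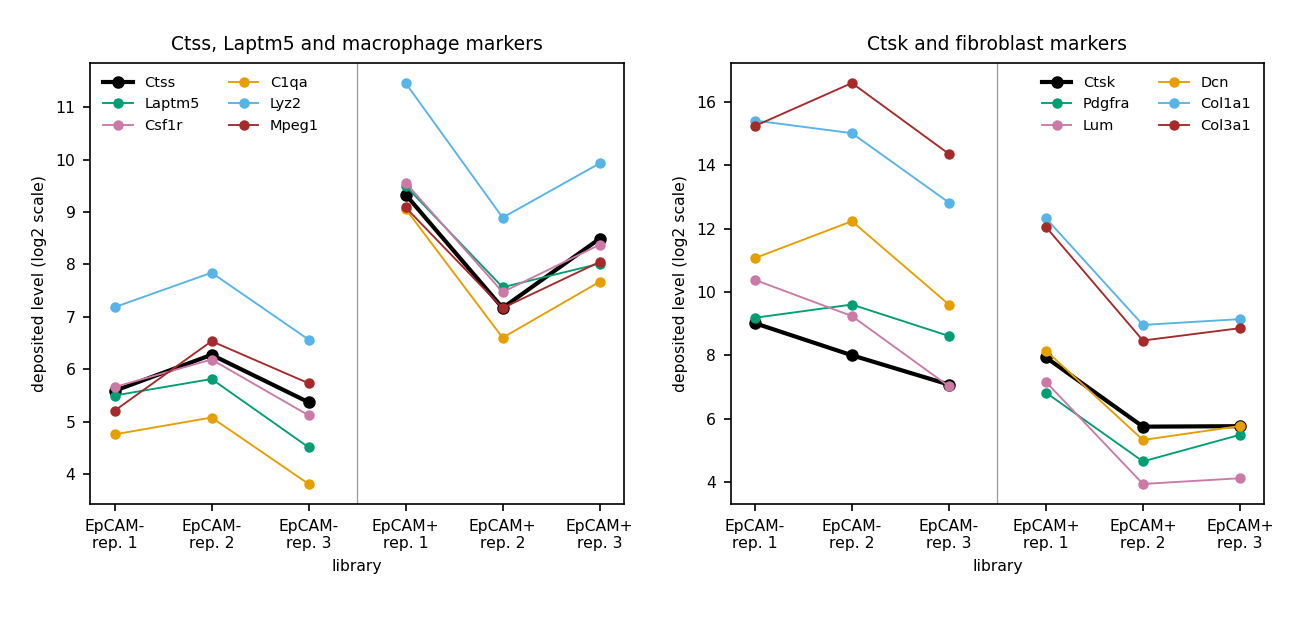
Deposited log2 levels in the 6 libraries (horizontal axis, EpCAM- then EpCAM+) of Ctss with Laptm5 and macrophage markers (left) and of Ctsk with fibroblast markers (right). Ctss and Csf1r run almost on top of each other, with EpCAM+ replicate 1 highest, while Ctsk differs from Pdgfra by -1.60 to -0.17 in EpCAM- and 0.27 to 1.11 in EpCAM+ libraries.

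The rises among the peptidases were smaller, and Ctsb and Ctsl were among the most abundant members while Ctsf was among the least abundant. Cathepsin B, a cysteine protease often secreted by tumour cells (Ctsb, chr14:63122462-63145923), was at 14.62, 14.80 and 14.94 in the EpCAM- libraries, against 14.09, 14.03 and 14.12 in the EpCAM+ libraries. All EpCAM- values lay above all EpCAM+ values, and Ctsb rose by 0.71 ± 0.14 (adjusted p = 0.00649). Cathepsin L, another cysteine endopeptidase (Ctsl), was at 14.41, 14.36 and 14.58, against 13.95, 14.00 and 13.90, a rise of 0.50 ± 0.13 (adjusted p = 0.0175). Smaller rises were seen for Ctsz, a carboxypeptidase (0.43 ± 0.11, adjusted p = 0.0159), for Ctsa (0.39 ± 0.10, adjusted p = 0.0185) and for Ctsf (0.40 ± 0.13, adjusted p = 0.0497). None of these 5 gave overlapping groups.

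Several of these calls were lost when libraries were left out, though none of these genes changed direction. Such fits use fewer libraries: with a single library left out, 31.6% to 46.3% of all tested genes passed, against 43.4% with all libraries. Ctsb lost its call only without both EpCAM+ replicate 1 and EpCAM- replicate 3 (log2 fold change 0.64, adjusted p = 0.0960). Ctsl did not pass without EpCAM- replicate 3 (adjusted p = 0.0635), EpCAM+ replicate 1 (0.0640) or EpCAM+ replicate 3 (0.0679), and Ctsz did not pass without EpCAM+ replicate 3 (adjusted p = 0.0660). Ctsa did not pass without EpCAM- replicate 3 (adjusted p = 0.0524) or EpCAM+ replicate 2 (0.0694). Of the single libraries, only EpCAM- replicate 1 could be left out with Ctsf still passing, and its adjusted p was 0.101 to 0.149 without any other. Ctsf also missed the threshold with no filter on low values (0.0702) and with 1 or 5 added before the logarithm (0.0501 and 0.0515). Like Ctsb, the genes Ctsl, Ctsz, Ctsa and Ctsf did not pass without both EpCAM+ replicate 1 and EpCAM- replicate 3. Ctsl, Ctsa and Ctsf also did not pass without both replicate 1 libraries.

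Cathepsin D, the main aspartic protease of lysosomes (Ctsd, chr7:142375911-142388038), was at 14.79, 14.65 and 13.81 in the EpCAM- libraries, against 14.52, 14.65 and 14.26 in the EpCAM+ libraries. The groups overlapped, with EpCAM- replicate 3 well under the rest, and the log2 fold change of -0.06 ± 0.28 did not pass (adjusted p = 0.871). Its sign turned to 0.24 without EpCAM- replicate 3, so no direction can be given. Tpp1, a tripeptidyl peptidase, had overlapping groups and a log2 fold change of 0.05 (95% confidence interval -0.21 to 0.30, adjusted p = 0.768).

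The 9 glycosidases, which remove sugars from glycogen, glycoproteins, glycolipids and glycosaminoglycans, were evenly divided: 3 rose, 3 fell and 3 did not pass, 33.3% each way beside 20.3% and 23.1% of all tested genes. Neuraminidase 1 (Neu1, chr17:34931253-34935953), which removes terminal sialic acids, was at 9.21, 9.49 and 9.27 in the EpCAM- libraries, against 10.45, 10.33 and 10.44 in the EpCAM+ libraries. The groups were clearly separate and each was narrow, and Neu1 fell by 1.09 ± 0.11 (adjusted p = 0.000341). Beta-galactosidase (Glb1) was at 9.64, 9.35 and 9.36, against 10.10, 9.96 and 9.98, a fall of 0.56 ± 0.12 (adjusted p = 0.00824). NEU1 and GLB1 proteins form a complex in the lysosome with the carboxypeptidase made from Ctsa. At the RNA level the members of this complex did not change together, since Ctsa was at 12.27, 12.10 and 12.18 in the EpCAM- libraries, above 11.85, 11.68 and 11.84 in the EpCAM+ libraries, and Neu1 and Glb1 fell.

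Alpha-mannosidase, which trims N-glycans (Man2b1), was at 10.79, 11.00 and 10.71 in the EpCAM- libraries, against 11.51, 11.21 and 11.43 in the EpCAM+ libraries, and fell by 0.56 ± 0.12 (adjusted p = 0.0106). Glb1 and Man2b1 did not pass without both EpCAM+ replicate 1 and EpCAM- replicate 3 (adjusted p = 0.102 and 0.119), and Man2b1 did not pass without both replicate 1 libraries (adjusted p = 0.0646). The corresponding beta-mannosidase gene, Manba, was at 10.39, 10.58 and 10.63, against 10.55, 10.52 and 10.54, with overlapping groups and a 95% confidence interval of -0.24 to 0.23 for its log2 fold change.

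Acid alpha-glucosidase, the glycogen-degrading enzyme (Gaa), was at 11.65, 12.28 and 12.14 in the EpCAM- libraries, against 11.29, 11.47 and 11.35 in the EpCAM+ libraries, and rose by 0.65 ± 0.17 (adjusted p = 0.0200). Alpha-galactosidase A, which acts on globotriaosylceramide (Gla), was at 9.32, 10.08 and 9.79, against 9.12, 9.15 and 9.17, and rose by 0.58 ± 0.19 (adjusted p = 0.0443). In both genes EpCAM- replicate 1 was the lowest of its group and lay nearest to the EpCAM+ libraries. Hexa, the alpha subunit of the ganglioside-degrading hexosaminidase A, was at 11.26, 11.12 and 11.03, against 10.83, 10.59 and 10.78, a rise of 0.41 ± 0.11 (adjusted p = 0.0227).

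The calls of these 3 genes were lost when single libraries were left out. Gaa did not pass without EpCAM- replicate 2 (adjusted p = 0.0529), EpCAM- replicate 3 (0.0622), EpCAM+ replicate 1 (0.0656) or EpCAM+ replicate 3 (0.0673). Gla passed without EpCAM- replicate 1 but had adjusted p of 0.101 to 0.109 without any other single library and 0.0606 with no filter on low values. Hexa did not pass without EpCAM+ replicate 2 (adjusted p = 0.0783) or EpCAM+ replicate 3 (0.0592). All 3 also did not pass without both EpCAM+ replicate 1 and EpCAM- replicate 3, nor did Hexa without both replicate 1 libraries. Gusb, the beta-glucuronidase, and Naglu, which acts on heparan sulfate, had overlapping groups and log2 fold changes of 0.04 (adjusted p = 0.861) and 0.17 (adjusted p = 0.298).

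Of the 6 sulfatases and lipid hydrolases 3 rose, none fell and 3 did not pass, beside 20.3% of all tested genes higher and 23.1% lower, so that no fall among 6 genes is near the background. Arylsulfatase A, which removes sulfate from sulfatide (Arsa, chr15:89472476-89477425), was at 10.93, 10.84 and 10.40 in the EpCAM- libraries, against 9.29, 9.24 and 9.18 in the EpCAM+ libraries. Even the lowest EpCAM- library was more than 1 log2 unit above the highest EpCAM+ library, and Arsa rose by 1.49 ± 0.15 (adjusted p = 0.000324). Per kilobase of exon it ranked 16 of the 37 members in EpCAM- and 30 in EpCAM+ cells. Arylsulfatase B, which acts on dermatan and chondroitin sulfate (Arsb), was at 9.88, 10.12 and 9.80, against 8.99, 9.23 and 9.32, and rose by 0.75 ± 0.14 (adjusted p = 0.00449). Sulfamidase, the sulfatase of heparan sulfate (Sgsh), did not follow them: it was at 8.14, 7.69 and 7.42, against 7.63, 8.12 and 8.26, with overlapping groups (log2 fold change -0.25 ± 0.25, adjusted p = 0.453).

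Lysosomal acid lipase, which frees cholesterol and fatty acids from lipoprotein lipids (Lipa), was at 10.86, 11.40 and 10.97 in the EpCAM- libraries, against 10.51, 10.25 and 10.31 in the EpCAM+ libraries. The groups did not overlap and Lipa rose by 0.72 ± 0.16 (adjusted p = 0.0103). Acid ceramidase (Asah1) was at 13.01, 12.81 and 12.92, against 12.78, 12.55 and 12.28. Its groups did not overlap either, and its log2 fold change of 0.38 ± 0.15 did not pass (adjusted p = 0.0760) unless EpCAM+ replicate 1 was left out (0.50, adjusted p = 0.0424) or upper-quartile scaling was used (0.42, adjusted p = 0.0461). Ppt1, a thioesterase that removes palmitate from proteins, had overlapping groups and a log2 fold change of -0.02 (95% confidence interval -0.26 to 0.22, adjusted p = 0.887).

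Of the 3 soluble helper proteins, 1 rose (33.3%) and none fell, shares near the 20.3% and 23.1% of all tested genes given so few members. Progranulin, a secreted growth factor that is also cleaved into granulins in lysosomes (Grn), was at 12.76, 13.28 and 12.87 in the EpCAM- libraries, against 12.56, 12.46 and 12.46 in the EpCAM+ libraries. EpCAM- replicate 2 stood highest, and the rise of 0.48 ± 0.15 passed narrowly (adjusted p = 0.0397). It passed without EpCAM- replicate 1, and had adjusted p of 0.0627 to 0.115 without any other single library, 0.0513 with no filter on low values and 0.0510 under quantile normalisation. Grn also did not pass without both EpCAM+ replicate 1 and EpCAM- replicate 3. Prosaposin, the precursor of the saposins that help enzymes reach their lipid substrates (Psap), was at 14.54, 14.40 and 13.78, against 14.47, 14.39 and 14.26, with EpCAM- replicate 3 lowest as for Ctsd. Its log2 fold change of -0.13 ± 0.22 did not pass (adjusted p = 0.666) and was 0.10 without that library. Npc2, which hands cholesterol to the membrane protein NPC1, had overlapping groups and a log2 fold change of 0.01 (95% confidence interval -0.30 to 0.31, adjusted p = 0.970).

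Among the 6 membrane proteins none rose, 2 fell (33.3%) and 4 did not pass, shares near the 20.3% and 23.1% of all tested genes given so few members. Scarb2 (chr5:92441314-92506833) encodes the membrane receptor that carries glucocerebrosidase to lysosomes. It was at 10.61, 10.55 and 9.16 in the EpCAM- libraries, against 11.75, 11.47 and 11.75 in the EpCAM+ libraries. EpCAM- replicate 3 lay far under the other 2, and the groups were separate with or without it. Scarb2 fell by 1.55 ± 0.37 (adjusted p = 0.0143), and its log2 fold change without EpCAM+ replicate 3 was -1.51, with an adjusted p of 0.0535.

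Cln3 (chr7:126571207-126585817), whose loss causes a neuronal storage disease, was at 8.06, 8.84 and 8.07 in the EpCAM- libraries, against 9.58, 9.61 and 9.17 in the EpCAM+ libraries. The groups did not overlap and Cln3 fell by 1.13 ± 0.24 (adjusted p = 0.00904). It did not pass without both EpCAM+ replicate 1 and EpCAM- replicate 3 (log2 fold change -0.95, adjusted p = 0.0814) or without both replicate 1 libraries (-0.94, adjusted p = 0.0705).

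Lamp1 and Lamp2, the glycoproteins that coat the inner face of the lysosomal membrane, lay higher in all EpCAM- than in all EpCAM+ libraries without passing the test. Lamp1 was at 14.26, 14.16 and 13.97, against 13.96, 13.82 and 13.75 (log2 fold change 0.29 ± 0.13, adjusted p = 0.129). Lamp2 was at 13.46, 13.79 and 13.43, against 13.28, 13.12 and 13.11 (log2 fold change 0.39 ± 0.14, adjusted p = 0.0548), and passed without EpCAM- replicate 1 (adjusted p = 0.0480) and under trimmed-mean scaling, upper-quartile scaling or array weights (0.0388 to 0.0448). Mcoln1, a calcium-releasing channel, was at 10.42, 10.53 and 10.41, against 10.22, 10.25 and 10.07 (log2 fold change 0.27 ± 0.10, adjusted p = 0.0610), also without overlap, and passed under trimmed-mean, upper-quartile and quantile normalisation and array weights (0.0289 to 0.0449). Npc1, the cholesterol exporter that works with NPC2, had overlapping groups and a log2 fold change of 0.20 ± 0.11 (adjusted p = 0.196).

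**Figure D4:**
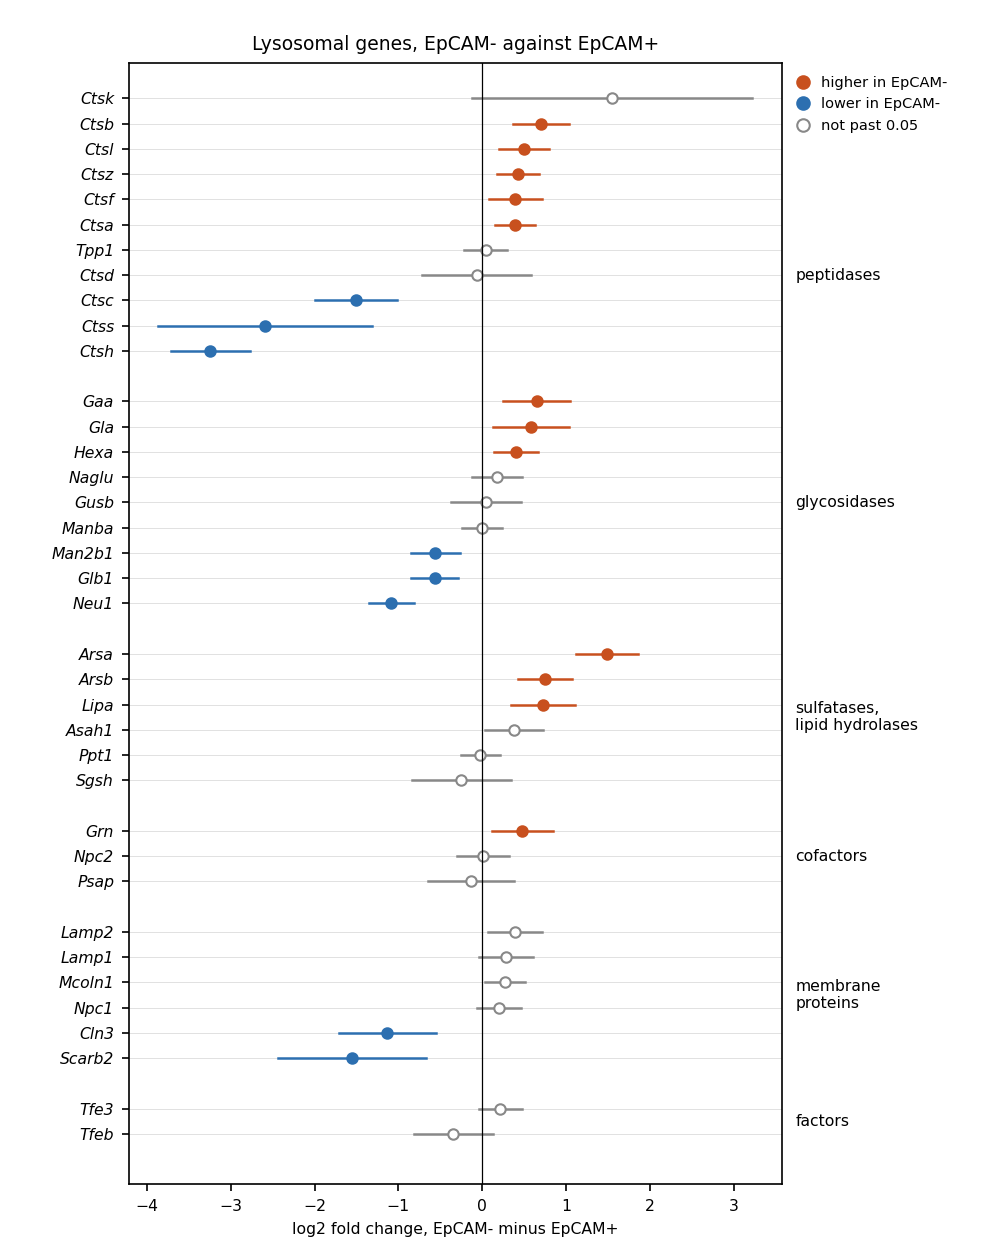
Log2 fold change, EpCAM- minus EpCAM+, of each of the 37 genes (horizontal axis) with its 95% confidence interval, coloured where the adjusted p is under 0.05 and grouped by role. Ctsh at -3.24 and Ctss at -2.59 lie furthest left and Arsa at 1.49 is the rightmost gene that passed, while Ctsk at 1.55 has the widest interval.

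Compared per kilobase of merged exon, the most abundant members were the same in both groups. Ctsd averaged 13.18 ± 0.53 on the log2 scale per kilobase in EpCAM- and 13.24 ± 0.20 in EpCAM+ cells, Psap 12.79 ± 0.40 and 12.92 ± 0.11, and Lamp1 12.71 ± 0.15 and 12.42 ± 0.11 (SD, n = 3 each). In EpCAM- cells the means of these 3 lay closer together than the SD of Ctsd between libraries. That SD does not compare genes within a library, and their order in single libraries was not examined. Ctsb, Ctsl and Ctsz followed in both groups, in that order. Below them the order changed: besides Ctsh and Arsa, Scarb2 ranked 28 in EpCAM- and 17 in EpCAM+ cells, Ctss 36 and 24, and Neu1 30 and 20. The lowest were Tfeb and Ctss in EpCAM- and Ctsf and Tfeb in EpCAM+ cells, pairs that differed by less than their spread.

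Some members share exon sequence with other annotated genes, and the sources do not say whether the counting used strand. Ctsd shares 34.4% of its merged exons with Gm49369 on the same strand, a gene at a mean level of 11.40 in EpCAM- and 11.09 in EpCAM+ cells, so its level is uncertain. Glb1 shares 5.49% with Tmppe, also on the same strand, at 9.22 in EpCAM- and 8.81 in EpCAM+ cells. On the opposite strand, Ctsb shares 12.8% with Fdft1, at 10.61 in EpCAM- and 11.83 in EpCAM+ cells. Cln3 shares 7.65% with Apobr, at 7.86 and 8.26, and Ppt1 shares 3.51% with Cap1, at 13.95 and 13.56. Ctsa shares 10.5% with Pltp, at 8.82 and 5.80, and Sgsh shares 21.6% with Card14, at 3.09 and 7.17. The Arsa and Arsb partners were low in both groups, at 5.17 and 4.02 for C230037L18Rik and 3.79 and 1.71 for Gm26527. Ctsl also overlaps an antisense gene and a processed pseudogene that were not used here, and reads could be divided between them.

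Other genes of the lysosomal system were counted in the same way. Of 29 other lysosomal hydrolases, 8 rose and 8 fell (median log2 fold change -0.02), so that 55.2% passed, against 43.4% of all tested genes. The hyaluronidase Hyal1 was at 7.44, 7.52 and 7.36 in the EpCAM- libraries, against 9.62, 10.26 and 10.39 in the EpCAM+ libraries, and fell by 2.65 ± 0.21 (adjusted p = 9.7e-05). Acp5, a tartrate-resistant acid phosphatase, fell by 2.01 ± 0.30 (adjusted p = 0.00181), and the nuclease Dnase2a fell by 1.26 ± 0.28 (adjusted p = 0.00959; 0.0551 without both EpCAM+ replicate 1 and EpCAM- replicate 3). The phospholipase Pla2g15 was at 9.48, 9.60 and 9.80, against 8.38, 8.30 and 8.04, and rose by 1.39 ± 0.15 (adjusted p = 0.000360).

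Of 23 other membrane proteins and channels tested, 7 rose and 6 fell (median 0.17), and 56.5% passed, against 43.4% of all tested genes. Tpcn1, an endolysosomal cation channel, was at 12.74, 12.52 and 12.59 in the EpCAM- libraries, against 10.67, 11.08 and 10.51 in the EpCAM+ libraries, and rose by 1.87 ± 0.16 (adjusted p = 0.000140). Laptm5, a lysosomal protein of blood cells, fell by 3.09 ± 0.55 (adjusted p = 0.00407) and had the same order of libraries as Ctss. The channel Mcoln2 was low in both groups, at 3.62, 3.70 and 4.16, against 4.92, 4.59 and 5.14. It fell by 1.06 ± 0.25 (adjusted p = 0.0133), and did not pass without EpCAM+ replicate 3 (adjusted p = 0.0534) or without both replicate 1 libraries (0.0728). Its log2 fold change was -0.84 with 5 added before the logarithm and -0.75 under quantile normalisation. Cd68, a glycoprotein abundant in macrophages, fell by 0.96 ± 0.31 (adjusted p = 0.0422), and of the single libraries only leaving out EpCAM- replicate 2 kept its call (adjusted p of 0.0528 to 0.127 otherwise). Upper-quartile (0.0520) and quantile normalisation (0.0972) also ended it. The count of 13 called genes depended on every library but EpCAM- replicate 1, being 6 without EpCAM- replicate 2, 8 without EpCAM- replicate 3, and 8, 6 and 5 without EpCAM+ replicates 1, 2 and 3. In the same fits, 38.3%, 36.1%, 34.4%, 35.3% and 31.6% of all tested genes passed.

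The vacuolar ATPase pumps protons into the lysosome. Of its 22 tested subunit genes, 4 rose and 4 fell (median 0.14), and 36.4% passed, against 43.4% of all tested genes. The largest changes were in isoforms that are restricted to particular epithelia. Atp6v0a4 was at 4.71, 4.19 and 4.18 in the EpCAM- libraries, against 9.07, 8.62 and 9.14 in the EpCAM+ libraries, and fell by 4.58 ± 0.24 (adjusted p = 1.5e-05). Atp6v1b1 was at 2.42, 2.29 and 2.25, against 5.76, 5.62 and 5.45, and fell by 3.29 ± 0.19 (adjusted p = 2.6e-05). Among the alternative membrane subunits of the a family, Atp6v0a1 fell by 0.79 ± 0.11 (adjusted p = 0.00105), while Tcirg1, known from osteoclasts, rose by 0.98 ± 0.13 (adjusted p = 0.00108). Without EpCAM- replicate 3 or without EpCAM+ replicate 3, 5 subunit genes passed in place of 8, beside 36.1% and 31.6% of all tested genes.

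Newly made hydrolases reach the lysosome through sorting receptors. Of 14 genes of the mannose 6-phosphate and sortilin routes, 3 rose and 4 fell (median -0.18), so that 7 of 14 passed, against 43.4% of all tested genes. Sorl1, a sorting receptor between Golgi and endosomes, was at 6.16, 6.96 and 6.88 in the EpCAM- libraries, against 10.90, 11.12 and 11.44 in the EpCAM+ libraries, and fell by 4.49 ± 0.25 (adjusted p = 2.0e-05). Sortilin (Sort1), which can carry prosaposin and cathepsins, was at 9.28, 9.95 and 9.86, against 11.63, 11.63 and 11.79, and fell by 1.99 ± 0.18 (adjusted p = 0.000193). Gnptg, a subunit of the enzyme that adds the mannose 6-phosphate tag, fell by 0.78 ± 0.17 (adjusted p = 0.0106; 0.0886 without both EpCAM+ replicate 1 and EpCAM- replicate 3). The large mannose 6-phosphate receptor Igf2r was at 13.08, 13.84 and 13.37, against 12.32, 12.83 and 12.74, and rose by 0.80 ± 0.23 (adjusted p = 0.0255). The small receptor M6pr, named after its values were seen, was at 12.12, 11.94 and 11.93, against 12.74, 12.81 and 12.75, and fell by 0.77 ± 0.10 (adjusted p = 0.000949). Igf2r did not pass without EpCAM- replicate 2 (adjusted p = 0.0544), EpCAM- replicate 3 (0.0556), EpCAM+ replicate 1 (0.0827) or EpCAM+ replicate 3 (0.0603).

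A further list held other MiT/TFE family genes, mTORC1 subunits and regulators, and proteins that anchor mTORC1 to the lysosome. There the kinase complex restrains TFEB. Of the 18 tested genes of this list, 7 rose and none fell (median 0.31). Mitf was the only MiT/TFE family gene among them, and Tfeb and Tfe3, counted with the members above, did not pass. Mitf, a relative of Tfeb, was at 6.98, 7.73 and 7.24 in the EpCAM- libraries, against 5.70, 5.99 and 4.96 in the EpCAM+ libraries, and rose by 1.76 ± 0.33 (adjusted p = 0.00464). The mTORC1 subunit Rptor rose by 0.78 ± 0.12 (adjusted p = 0.00210). Folliculin (Flcn), a regulator of the lysosomal Rag GTPases, rose by 0.76 ± 0.15 (adjusted p = 0.00634), and its partner Fnip2 by 1.12 ± 0.33 (adjusted p = 0.0308). Fnip2 did not pass without EpCAM- replicate 2 (adjusted p = 0.0838), EpCAM- replicate 3 (0.0870), EpCAM+ replicate 1 (0.0942) or EpCAM+ replicate 3 (0.0786). The 7 called genes are 38.9% of those tested, against 20.3% of all tested genes higher and 23.1% lower.

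Cystatins inhibit the cysteine cathepsins, and 3 could be tested. Cst6 was at 6.94, 6.63 and 6.80 in the EpCAM- libraries, against 3.79, 3.42 and 2.98 in the EpCAM+ libraries, and rose by 3.40 ± 0.26 (adjusted p = 7.7e-05). Cst3, the abundant secreted cystatin, was at 11.35, 11.42 and 11.23, against 11.44, 11.17 and 11.35 (log2 fold change 0.01, adjusted p = 0.945). Cstb was at 11.04, 10.98 and 10.51, against 11.24, 11.45 and 11.21 (log2 fold change -0.46 ± 0.16, adjusted p = 0.0554).

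Of 19 autophagy receptors and core genes, 4 rose and 2 fell (median 0.14), 31.6% in all, against 43.4% of all tested genes. Sqstm1, the receptor that links ubiquitinated cargo to autophagosomes, rose by 0.61 ± 0.20 (adjusted p = 0.0456), and Wipi1, which binds the forming membrane, by 0.66 ± 0.17 (adjusted p = 0.0172). Atg9b was at 10.50, 9.06 and 10.92 in the EpCAM- libraries, against 11.89, 11.95 and 11.65 in the EpCAM+ libraries. It fell by 1.67 ± 0.44 (adjusted p = 0.0198), with a log2 fold change of -1.12 without EpCAM- replicate 2 and -2.05 without EpCAM- replicate 3. Atg5, part of the conjugation machinery, fell by 0.56 ± 0.14 (adjusted p = 0.0184). Sqstm1 passed without EpCAM- replicate 1 and had adjusted p of 0.0700 to 0.152 without any other single library. Without EpCAM+ replicate 3, Wipi1 had an adjusted p of 0.0618. Atg9b did not pass without any EpCAM+ library (0.0521 to 0.0605), and Atg5 did not pass without EpCAM+ replicate 1 (0.0599) or 2 (0.0627). In all, 2, 3 and 2 genes of this list passed without EpCAM+ replicates 1, 2 and 3, beside 34.4%, 35.3% and 31.6% of all tested genes. Of the list genes with calls lost to single libraries, Cd68, Igf2r, Fnip2, Sqstm1 and Atg5 also did not pass without both EpCAM+ replicate 1 and EpCAM- replicate 3 (adjusted p of 0.135 to 0.192), nor did Cd68, Atg9b, Wipi1 and Sqstm1 without both replicate 1 libraries (0.0682 to 0.118).

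**Figure D5:**
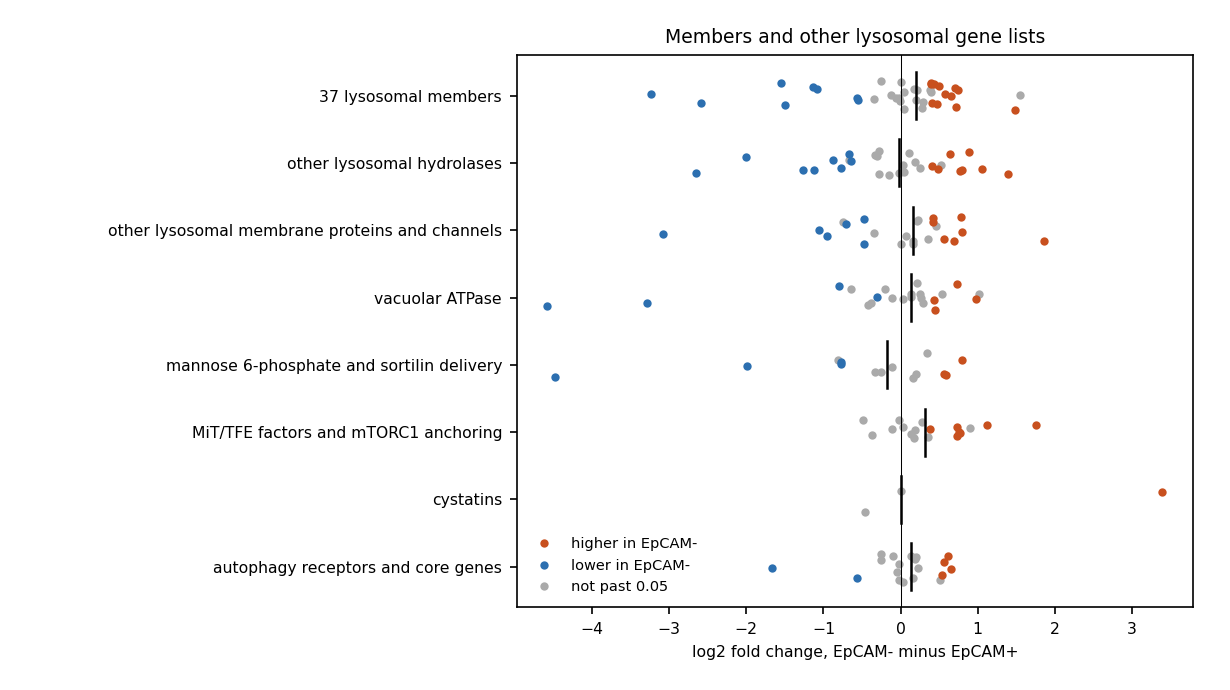
Log2 fold changes, EpCAM- minus EpCAM+ (horizontal axis), of the tested genes of each list (rows), 1 point per gene with the list median as a bar and colour for the test. Every list except the MiT/TFE and cystatin lists has genes on both sides that passed, and the furthest points are Atp6v0a4 at -4.58, Sorl1 at -4.49 and Cst6 at 3.40.

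Markers of other cells were counted beside these lists. All 10 acinar markers fell, against 23.1% of all tested genes, with a summed level of 0.00199% to 0.00236% of the total in EpCAM- and 0.217% to 0.456% in EpCAM+ cells. Of 4 endothelial markers tested, 1 rose and 3 did not pass, with summed levels of 0.000677% to 0.000728% and 0.000356% to 0.000497%. None of the acinar, endothelial or osteoclast markers was at 0 in any library. The part of acinar cells in the levels of the lysosomal genes was not tested.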

How the data were processed

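RNA of FACS-sorted YFP+ cells was sequenced on an Illumina HiSeq after KAPA mRNA HyperPrep library preparation, per the labels' protocols. The authors deposited normalised gene values on a log2 scale. The submitters' processing notes name STAR 2.5.2, RSEM, DESeq2 1.24.0 and GRCm38. The sources used here do not give the exact transformation, the roles of these tools or the annotation. Values were back-transformed only for shares and filters, and depth is unknown.

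Genes whose back-transformed values averaged 10 or more were tested with limma 3.58.1 (R 4.3.3, trend, two-sided) on the log2 values of 3 against 3 libraries, with Benjamini-Hochberg adjustment. The smallest p an exact permutation of 3 against 3 samples can give is 0.1. The code was tested on simulated data. P-values measure the spread between these libraries, and the labels do not say whether same-numbered libraries share a tumour. Symbols were matched for 25846 identifiers. Gene positions and exons are GENCODE M21 on GRCm38, and promoters are RefSeq. The members and lists were chosen with earlier results of these data known. All 37 members are named, and of each pathway list up to 4 genes of largest change that passed with groups apart, besides exceptions stated in place and 2 cystatins. Alternatives were other filters, offsets (1 and 5), normalisations, library weights, a replicate block and libraries left out. An allele shared by all animals is not reported here.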

Additional observations from a re-analysis of the deposited data

How the results depend on the processing

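The alternatives of leaving out EpCAM+ replicate 1 with EpCAM- replicate 3, or both replicate 1 libraries, were chosen after seeing the data. Over single libraries left out, 4987 to 7300 of all tested genes passed, 12 to 21 members (5 to 13 higher, 7 to 8 lower), 12 to 17 other hydrolases, 5 to 12 other membrane proteins, 5 to 10 vacuolar ATPase genes, 6 to 7 delivery genes, 5 to 9 MiT/TFE and mTORC1 genes, 1 to 2 cystatins and 2 to 6 autophagy genes. Without EpCAM+ replicate 1 and EpCAM- replicate 3, 4369 genes passed in all, with 9 members (4 higher, 5 lower), 9 other hydrolases, 6 other membrane proteins, 5 vacuolar ATPase, 4 delivery and 2 autophagy genes, and fewer samples were fitted. Without both replicate 1 libraries, 2 autophagy genes passed. Quantile normalisation, the replicate block and array weights each gave 2 cystatins, where the cause was not tested.

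Signs turned only for members that did not pass. Over the libraries left out, alone or as EpCAM+ replicate 1 with EpCAM- replicate 3, log2 fold changes spanned -0.252 to 0.263 for Ctsd, -0.0166 to 0.107 for Tpp1, -0.140 to 0.222 for Gusb, -0.0541 to 0.0674 for Manba, -0.0854 to 0.0324 for Ppt1, -0.279 to 0.151 for Psap and -0.0904 to 0.162 for Npc2. Without both replicate 1 libraries they were -0.0659 for Gusb, 0.0726 for Manba and -0.0228 for Npc2. Array weights gave -0.0758 for Gusb, 0.0454 for Manba and -0.0650 for Npc2. The trimmed-mean scaling gave 0.0210 for Manba and 0.00535 for Ppt1, the upper quartile 0.0315 for Manba and 0.0158 for Ppt1, and quantile normalisation 0.0178 for Manba and -0.0311 for Npc2. Quantile normalisation moved the median log2 fold change of all tested genes to 0.13, beside 0.17 for the members. The number of members called was 17 to 23 over the settings that kept all libraries.

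Deviations from the group means correlated at 0.410, 0.0438 and 0.165 between libraries numbered 1, 2 and 3, so the numbers were not taken to pair the samples. With the replicate number as a block, 7090 genes and 20 members (12 higher, 8 lower) passed, with Ctsk added (adjusted p = 0.00791) and Ctsf missing (0.0918), and Cd68 did not pass (0.0770). Not every library correlated best with its own number.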
